A study of Mus musculus with 16 samples.

Results

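Open chromatin was examined at 10 genes of glycolysis in mouse CD8+ T cells: Slc2a1, Hk1, Hk2, Gpi1, Pfkp, Aldoa, Gapdh, Eno1, Pkm and Ldha. The genes were chosen by name, as the main glucose transporter, enzymes of most but not all steps of the pathway and the enzyme that makes lactate. Genes of the steps left out are counted below among the further glycolysis genes. The chosen genes are 10 of 21911 protein-coding genes of the GENCODE M21 annotation. All were annotated and all held a peak in at least 7 of 16 ATAC-seq libraries. ATAC-seq uses a transposase that inserts sequencing adapters where DNA is accessible, and a peak is a stretch where more fragments piled up than in the local background. The libraries form 4 groups of 4, which are effector (TE) and memory (TM) cells of WT (TPdh+/+) and TPdh-/- mice. Per the study's methods, Pdha1 of TPdh-/- mice was floxed and deleted by a Cre transgene under the Cd4 promoter, which acts in both CD4+ and CD8+ lineages. OT-I cells, whose T cell receptor sees a peptide of ovalbumin, had been activated with that peptide and then grown in IL-2 for TE or in IL-15 for TM. Mice of both sexes were used as adults. Whether WT mice carried the Cre transgene, and whether libraries came from separate animals, is not given in the sources used here, so a p-value measures only the spread between these libraries.

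Glycolysis splits glucose into pyruvate. The pyruvate dehydrogenase complex, of which Pdha1 encodes a subunit, turns pyruvate into acetyl-CoA in mitochondria, whereas lactate dehydrogenase turns it into lactate in the cytosol. Activated T cells are known for a high rate of glycolysis, and memory T cells are known to rely more on mitochondrial oxidation. The comparisons therefore ask whether chromatin at these genes of glycolysis is open in different places or to a different degree when the complex is missing, and between TE and TM.

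The lists differed in length and depth. They held 2290 to 19234 peaks in WT TE, 32906 to 78635 in TPdh-/- TE, 13304 to 54892 in WT TM and 60189 to 86637 in TPdh-/- TM. The background coverage recovered from the deposited peak values, in fragments per base, was 0.636 to 1.55 in WT TE and 0.173 to 0.445 in TPdh-/- TE. In TM it was 0.354 to 0.572 for WT and 0.186 to 0.261 for TPdh-/-. Within each cell type every TPdh-/- library was shallower than every WT library and had a longer peak list. Genotype therefore cannot be told apart from depth or list length by the groups alone. As a check of the labelled cell type, 8 markers of CD8+ T cells had a peak at a start in 31 of 128 gene-library pairs (24.2%), close to the 20.3% of all protein-coding genes, and 10 markers of other cells in 8 of 160 (5%), with no such peak for Cd4 and none for Cd2 among the T cell genes. Peak lists do not show whether Pdha1 was deleted, and genotypes were taken from the labels.

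Most promoter windows of the 10 genes were richer in GC than the median window of all genes. RefSeq windows from 250 bases before to 50 after a start (GRCm38.p6, 17 windows for all 10 genes) had a median GC content of 64.7%, against 52.7% over 32851 windows of all genes, and a median ratio of observed to expected CpG of 0.678 against 0.384. Their GC content ranged from 51.3% to 69.0%. The lowest was the window at the first start of Hk1, with a CpG ratio of 0.0507, and an Aldoa window had 52.7% and a ratio of 0.0. Printed here are 216 to 250 bases before the start of 4 genes, 5′ to 3′ on the strand of the gene. These 4 were chosen because recurring peaks overlap the bases of Slc2a1, Hk2 and Pfkp, and Ldha holds the most matches to ACGTG. The start used for Ldha is a RefSeq start inside the longer GENCODE gene. Capitals mark ACGTG, the core that HIF-1 binds, or GGGCGG, the GC box of Sp1, on either strand. Slc2a1 is at chr4:119108495-119108710 (plus strand), Hk2 at chr6:82774455-82774704 (minus), Pfkp at chr13:6648778-6649021 (minus) and Ldha at chr7:46845554-46845803 (plus).
Slc2a1: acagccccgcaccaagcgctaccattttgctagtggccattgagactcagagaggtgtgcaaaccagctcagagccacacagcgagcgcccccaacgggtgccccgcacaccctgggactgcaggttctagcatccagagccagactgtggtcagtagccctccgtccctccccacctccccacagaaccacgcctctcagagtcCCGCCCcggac
Hk2: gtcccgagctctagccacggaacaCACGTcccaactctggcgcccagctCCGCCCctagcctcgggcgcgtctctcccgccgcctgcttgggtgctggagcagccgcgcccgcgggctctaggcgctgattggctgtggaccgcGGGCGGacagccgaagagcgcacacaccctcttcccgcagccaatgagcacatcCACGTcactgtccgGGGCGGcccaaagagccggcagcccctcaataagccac
Pfkp: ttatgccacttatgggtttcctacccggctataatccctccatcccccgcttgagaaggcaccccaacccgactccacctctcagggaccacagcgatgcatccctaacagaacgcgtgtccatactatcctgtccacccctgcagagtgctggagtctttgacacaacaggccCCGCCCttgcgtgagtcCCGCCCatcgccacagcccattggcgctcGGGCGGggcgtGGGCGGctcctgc
Ldha: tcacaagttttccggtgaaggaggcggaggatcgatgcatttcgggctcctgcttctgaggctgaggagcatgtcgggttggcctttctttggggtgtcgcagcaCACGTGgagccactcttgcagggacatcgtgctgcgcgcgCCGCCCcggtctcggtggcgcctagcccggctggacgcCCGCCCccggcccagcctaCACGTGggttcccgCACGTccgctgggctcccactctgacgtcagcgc
Over the 17 windows, ACGTG was present in 8 (47.1%, against 19.6% of all windows) and GGGCGG in 10 (58.8%, against 35.7%). Each was counted on both strands. The E-box CACGTG, which contains ACGTG and is bound by Myc and related factors, was in 1 window (5.88%, against 7.15%), that of Ldha, where it occurs 2 times. TATAAA was also in 1 window (5.88%, against 13.6%), that of Slc2a1, 28 bases after the RefSeq start and so outside the bases printed. Windows of the same gene overlap for Aldoa and Eno1, and a match of letters is not a bound site.

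Several recurring peaks lay away from the first start of their gene, and 4 of those sites are printed as 200 bases around the stretch covered by most libraries, which is in capitals. Both Pfkp sites are intronic, at chr13:6647187-6647386 and chr13:6633746-6633945, the Aldoa site is intronic at chr7:126799349-126799548, and the Gpi1 site is upstream of the gene at chr7:34234096-34234295 (GRCm38, all on the minus strand, the strand of each gene).
Pfkp intron, nearer site: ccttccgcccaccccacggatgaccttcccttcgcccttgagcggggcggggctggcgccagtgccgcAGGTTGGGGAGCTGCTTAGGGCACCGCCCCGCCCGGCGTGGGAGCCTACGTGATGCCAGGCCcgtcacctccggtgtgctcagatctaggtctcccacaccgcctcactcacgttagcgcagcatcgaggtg
Pfkp intron, farther site: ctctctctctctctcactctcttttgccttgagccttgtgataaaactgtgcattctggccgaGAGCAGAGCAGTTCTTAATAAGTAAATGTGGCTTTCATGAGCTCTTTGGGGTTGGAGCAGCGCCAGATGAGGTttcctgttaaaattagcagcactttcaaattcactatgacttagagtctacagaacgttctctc
Aldoa intron site: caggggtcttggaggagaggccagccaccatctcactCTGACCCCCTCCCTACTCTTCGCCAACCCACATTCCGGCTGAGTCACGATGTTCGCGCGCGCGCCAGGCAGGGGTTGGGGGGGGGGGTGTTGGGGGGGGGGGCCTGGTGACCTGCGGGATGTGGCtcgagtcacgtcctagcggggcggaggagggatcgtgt
Gpi1 upstream site: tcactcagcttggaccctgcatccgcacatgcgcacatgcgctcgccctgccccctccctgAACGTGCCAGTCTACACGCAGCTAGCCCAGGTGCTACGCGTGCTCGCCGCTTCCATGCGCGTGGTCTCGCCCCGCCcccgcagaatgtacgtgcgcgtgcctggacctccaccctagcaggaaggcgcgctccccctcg
The nearer Pfkp site had a GC content of 69.5%, with 2 matches to ACGTG and 4 to GGGCGG. The farther Pfkp site had 44.0% GC and no match to any of the letters searched. Aldoa and Gpi1 sites each had 68.5% GC, with 1 and 2 matches to ACGTG and 1 match each to GGGCGG. Among 9250 regions held by 4 or more libraries anywhere in the genome, windows of this length had a median GC content of 59.0%, and 16.5% held ACGTG and 41.6% GGGCGG.

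A gene is called held by a library that has a peak in its body or up to 5000 bp from either end. In these bulk samples, fewer cells with an open site and a site less open in each cell cannot be told apart. The 10 genes were held in 110 of 160 gene-library pairs (68.8%), against 46.5% over all protein-coding genes. With the peak summit within 1000 bp of an annotated start of the gene, they were held in 70 of 160 pairs (43.8%), against 20.3%. In both counts the 10 genes lay above all genes in 15 of 16 libraries, and WT TM replicate 3, which held none of them, was the exception. Without that library the shares were 73.3% and 46.7%. The windows of the 10 genes were longer than usual, with a median of 36.01 kb against 27.4 kb, and had a median of 10.5 annotated starts against 3. When only the most upstream start of each gene was used, the share was 27.5% against 16.2%, which is a smaller gap. These shares are descriptions, since the genes were chosen by name with earlier results of these data known.

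**Figure D1:**
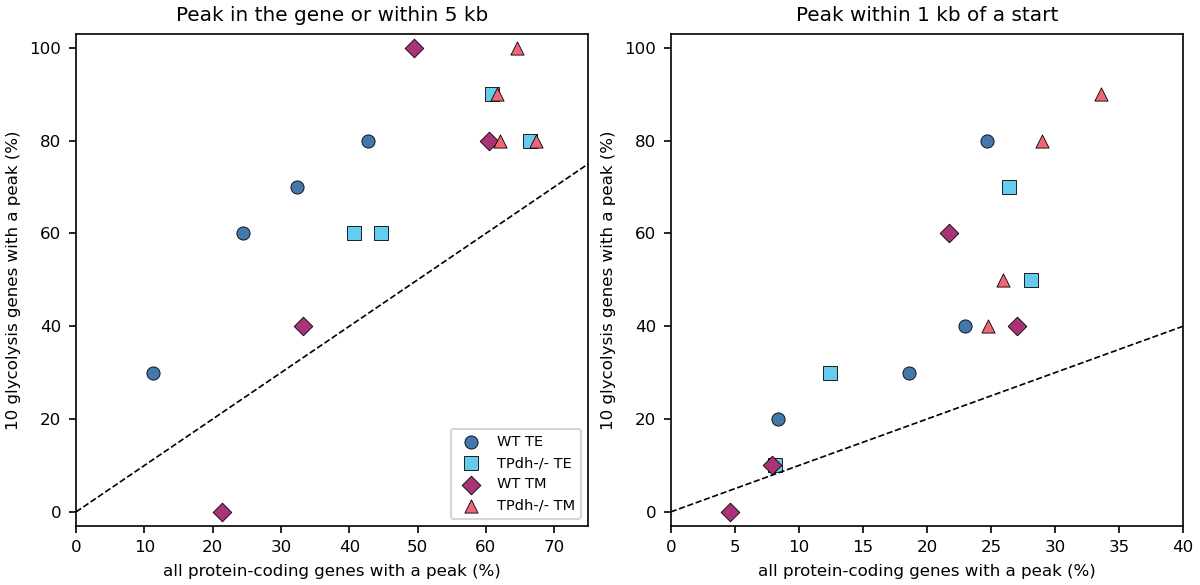
Share of the 10 glycolysis genes with a peak (vertical axis, percent) against the share of all protein-coding genes with a peak (horizontal axis, percent) in each of 16 libraries, for peaks in the gene or within 5 kb (left) and within 1 kb of a start (right); the dashed line marks equal shares. All libraries but WT TM replicate 3, at 0% in both panels, lie above the line.

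In WT TE, 6.0 ± 2.16 of the 10 genes were held per library (SD, n = 4, range 3 to 8). In TPdh-/- TE it was 7.25 ± 1.5 (SD, n = 4, range 6 to 9), in WT TM 5.5 ± 4.43 (SD, n = 4, range 0 to 10) and in TPdh-/- TM 8.75 ± 0.957 (SD, n = 4, range 8 to 10). The spread in WT TM is therefore as wide as the scale allows, and its range covers all other groups. At a start, 4.25 ± 2.63, 4.00 ± 2.58, 2.75 ± 2.75 and 6.5 ± 2.38 genes were held in the same order (SD, n = 4 each). All genes were held in 27.7%, 53.2%, 41.1% and 63.9% of cases in the windows and in 18.7%, 18.8%, 15.3% and 28.3% at a start, so the group with most glycolysis genes also held most genes of any kind.

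The windows of the 10 genes held 248 peaks, with fold enrichments of 2.97 to 12.4. Fold enrichment is the summit pileup divided by the background, with 1 added to both. Of these peaks 86 were at a start of the gene itself (34.7%). Of all peaks in windows of protein-coding genes, 21.03% were at a start of any protein-coding gene, which is a wider definition. Of the 248 peaks 142 had their summit in an intron, 38 in an exon, 43 upstream and 25 downstream. The peaks rested on few fragments: the median summit pileup was 6 fragments and the largest 22, 73 peaks (29.4%) had 4 or fewer, and 52 passed a −log10 q of 5. For 62 peaks the nearest annotated start was that of another gene, such as Ppp4c beside Aldoa, Mir1957a inside Slc2a1 or the antisense gene Hk1os inside Hk1.

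**Figure D2:**
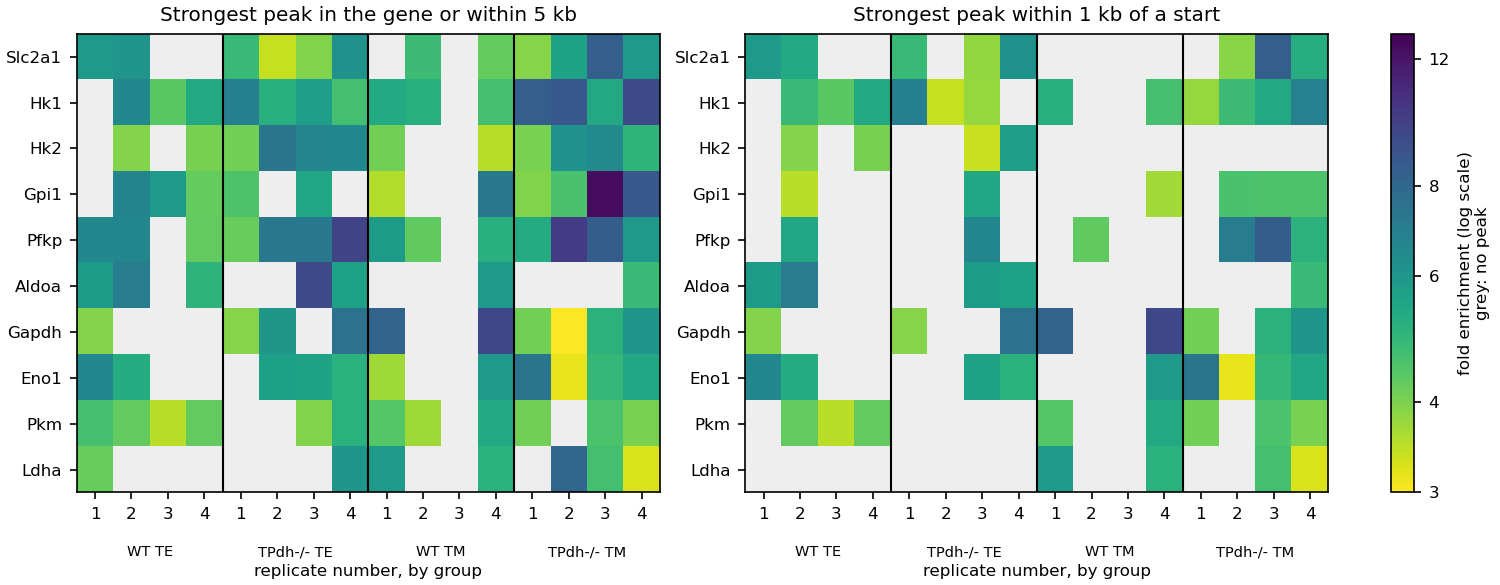
Fold enrichment (colour, log scale) of the strongest peak of each gene in each of 16 libraries, in the gene or within 5 kb (left) and within 1 kb of a start (right); grey means no peak. WT TM replicate 3 is grey throughout, and Hk2 has no peak at a start in any TM library.

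Glucose enters T cells mainly through the transporter that Slc2a1 encodes (GLUT1). Slc2a1 (ENSMUSG00000028645.11, chr4:119108711-119137983, plus strand) was held in 12 libraries, and in 8 at a start. In WT TE its strongest peak had a fold enrichment of 5.89 in replicate 1 and 6.07 in replicate 2, and replicates 3 and 4 held none. In TPdh-/- TE the values were 4.84, 3.41, 3.97 and 6.12. In WT TM replicates 2 and 4 held 4.76 and 4.24, and in TPdh-/- TM the values were 3.92, 5.55, 8.35 and 5.90. The start was open in both cell types of TPdh-/- (3 libraries each) and in 2 WT TE libraries, and no WT TM library held it. Its merged region, chr4:119108364-119109286, covers the printed promoter. The stretch common to all 8 libraries, chr4:119108749-119108807, is 59 bp long and lies after the printed bases. The highest of these start peaks, 8.35 in TPdh-/- TM replicate 3, had 13 fragments at its summit.

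Hexokinases phosphorylate glucose and so keep it in the cell. Hk1 (ENSMUSG00000037012.18, chr10:62268855-62379908, minus strand) has the longest gene of the 10 and the most peaks, 56, which merged into 36 regions, 29 of them seen in 1 library each. It was held in 14 libraries. In WT TE its strongest peaks were 6.55, 4.36 and 5.32 in replicates 2 to 4, and in TPdh-/- TE they were 6.90, 5.20, 5.74 and 4.65. In WT TM the values were 5.30, 5.17 and 4.62 in replicates 1, 2 and 4, and in TPdh-/- TM 8.33, 8.72, 5.36 and 9.29. Its most shared region, chr10:62339558-62341081, was held by 10 libraries, including all 4 of TPdh-/- TM, and lies not at the first start but at an internal start, with summits 39232 to 39879 bp into the gene, beside the start of Hk1os. The first start itself had a peak within 1000 bp in 1 library, WT TE replicate 2. A second recurring region, in an intron at chr10:62293638-62294144, was held by 5 libraries, and by no TPdh-/- TM library.

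Hk2 (ENSMUSG00000000628.10, chr6:82725025-82774454, minus strand) encodes the hexokinase known to be induced in activated T cells. It was held in 12 libraries but at a start in only 4, all TE. In WT TE its strongest peaks were 3.95 in replicate 2 and 4.06 in replicate 4, both in the printed promoter. In TPdh-/- TE the values were 4.10, 7.36, 6.68 and 6.54, and none of these 4 was at the first start: that of replicate 1 lay downstream of the gene, and those of replicates 2 to 4 lay in introns, 30032, 4338 and 29912 bp from the first start. Start peaks of 3.40 and 5.72 were also present in replicates 3 and 4. WT TM replicates 1 and 4 held 4.11 and 3.51, and TPdh-/- TM 4.04, 6.17, 6.44 and 4.98. In 3 libraries, TPdh-/- TE replicate 4 and TPdh-/- TM replicates 3 and 4, a peak had its summit at -1294 to -1074 bp from the start (negative is upstream), just outside the distance that counts as at a start.

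Gpi1 encodes glucose-6-phosphate isomerase, which makes fructose-6-phosphate. Gpi1 (ENSMUSG00000036427.5, chr7:34201330-34230336, minus strand) was held in 11 libraries and at a start in 6. In WT TE the values were 6.69, 5.92 and 4.23 in replicates 2 to 4, and in TPdh-/- TE 4.52 and 5.42 in replicates 1 and 3. In WT TM they were 3.54 and 7.17 in replicates 1 and 4, and in TPdh-/- TM 3.96, 4.58, 12.4 and 8.74. The 12.4 of TPdh-/- TM replicate 3, with 18 fragments and a −log10 q of 17.5, was the highest fold of the 248 peaks. It belongs to the printed upstream site, held by 7 libraries of all 4 groups. The summits lie at -4062 to -3768 bp from the first start of Gpi1, where negative is upstream, at the starts of Gm12762 and Gm12758, which are annotated as other genes, so position alone does not assign the site to Gpi1. The first start of Gpi1 was open in 3 libraries, all TPdh-/- TM, with folds of 4.58, 4.52 and 4.53.

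Pfkp encodes the platelet type of phosphofructokinase, the enzyme that commits sugar to glycolysis. Pfkp (ENSMUSG00000021196.14, chr13:6579768-6648777, minus strand) was held in 14 libraries and at a start in 6. Its strongest peaks were 6.56, 6.62 and 4.28 in WT TE replicates 1, 2 and 4, and 4.23, 7.21, 7.17 and 9.65 in TPdh-/- TE. In WT TM they were 5.85, 4.29 and 5.12 in replicates 1, 2 and 4, and in TPdh-/- TM 5.27, 10.04, 8.46 and 5.89. It held 3 recurring regions, more than any other of the 10 genes. The first start (chr13:6648553-6649360) was held by 6 libraries, and the intronic sites 1358 to 1588 bp and 14751 to 15063 bp from it (chr13:6647072-6647761 and chr13:6633134-6634227) by 8 each. At both intronic sites these were 2 libraries of each TE group, 1 of WT TM and 3 of TPdh-/- TM. The 2 highest Pfkp peaks, 10.04 in TPdh-/- TM replicate 2 and 9.65 in TPdh-/- TE replicate 4, lay at yet another intronic place, chr13:6631268-6631543, that no other library held.

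Aldolase splits the 6-carbon sugar. Aldoa (ENSMUSG00000030695.16 and ENSMUSG00000114515.2, chr7:126795234-126809108, minus strand) was held in 7 libraries and at a start in 5. The values were 5.84, 6.998 and 4.998 in WT TE replicates 1, 2 and 4, 9.24 and 5.62 in TPdh-/- TE replicates 3 and 4, 5.92 in WT TM replicate 4 and 4.82 in TPdh-/- TM replicate 4. Of these 7, only 4 were at an Aldoa start: those of WT TE replicates 1 and 2, TPdh-/- TE replicate 4 and TPdh-/- TM replicate 4, while the other 3 belong to a region at the start of the neighbour Ppp4c. The printed intronic site, at internal starts with summits 9612 to 9759 bp from the first, was held by 5 libraries, and the first start by 1, WT TE replicate 2.

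Gapdh oxidises glyceraldehyde-3-phosphate. Gapdh (ENSMUSG00000057666.18, chr6:125161715-125166467, minus strand) was held in 10 libraries and at a start in 8. WT TE replicate 1 held 3.93, TPdh-/- TE replicates 1, 2 and 4 held 3.91, 5.99 and 7.49, WT TM replicates 1 and 4 held 8.17 and 9.46, and TPdh-/- TM held 4.10, 2.98, 5.08 and 6.03. The 9.46 of WT TM replicate 4 was the highest fold of any start peak of the 10 genes, and the peaks of replicates 4 and 1 had 14 and 12 fragments, although the other 2 WT TM libraries held none. The recurring region, chr6:125165258-125166134, was held by 5 libraries from all 4 groups.

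Enolase makes phosphoenolpyruvate, and the gene for its common form was open at its first start in 9 libraries, more than any other of the 10 genes. Eno1 (ENSMUSG00000063524.13, chr4:150236721-150248879, plus strand) was held in 11 libraries, in 9 of them at a start. In WT TE replicates 1 and 2 held 6.56 and 5.26, and in TPdh-/- TE replicates 2 to 4 held 5.69, 5.58 and 5.11. In WT TM replicates 1 and 4 held 3.69 and 5.92, and TPdh-/- TM held 7.36, 3.17, 4.91 and 5.41. All 4 TPdh-/- TM libraries thus held the start, as did 2 libraries of each TE group and 1 of WT TM. The region chr4:150236723-150237453 was held by 7, and the summit in WT TE replicate 1 had 22 fragments, the most of any of the 248 peaks.

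Pyruvate kinase makes the pyruvate that the missing complex would use. Pkm (ENSMUSG00000032294.17, chr9:59656368-59679375, plus strand) was held in 12 libraries and at a start in 8. The values were 4.62, 4.27, 3.49 and 4.28 in WT TE, 3.97 and 5.11 in TPdh-/- TE replicates 3 and 4, 4.43, 3.69 and 5.34 in WT TM replicates 1, 2 and 4, and 4.10, 4.54 and 4.02 in TPdh-/- TM replicates 1, 3 and 4. Its peaks were the weakest of the 10 genes, with a highest fold of 5.34 and no −log10 q above 3.94. The region at the start, chr9:59656068-59657064, was held by 3 WT TE, 1 WT TM and 3 TPdh-/- TM libraries and by no TPdh-/- TE library.

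Lactate dehydrogenase A turns pyruvate into lactate. Ldha (ENSMUSG00000063229.15, chr7:46841475-46855627, plus strand) was held in 7 libraries and at a start in 4, and with Aldoa was the least often held. WT TE replicate 1 held 4.23 and TPdh-/- TE replicate 4 held 6.06, both away from a start. WT TM replicates 1 and 4 held 5.90 and 5.09 at a start, and TPdh-/- TM replicates 2 to 4 held 8.02, 4.65 and 3.26, the latter 2 at a start. These starts are internal, and the first annotated start had no peak in any library. Start peaks of Ldha were therefore seen in 4 TM libraries, 2 of each genotype, and in no TE library. The 8.02 of TPdh-/- TM replicate 2 lay downstream of the gene, near the start of Ldhc, the lactate dehydrogenase of the testis. No region of Ldha was held by more than 3 libraries.

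**Figure D3:**
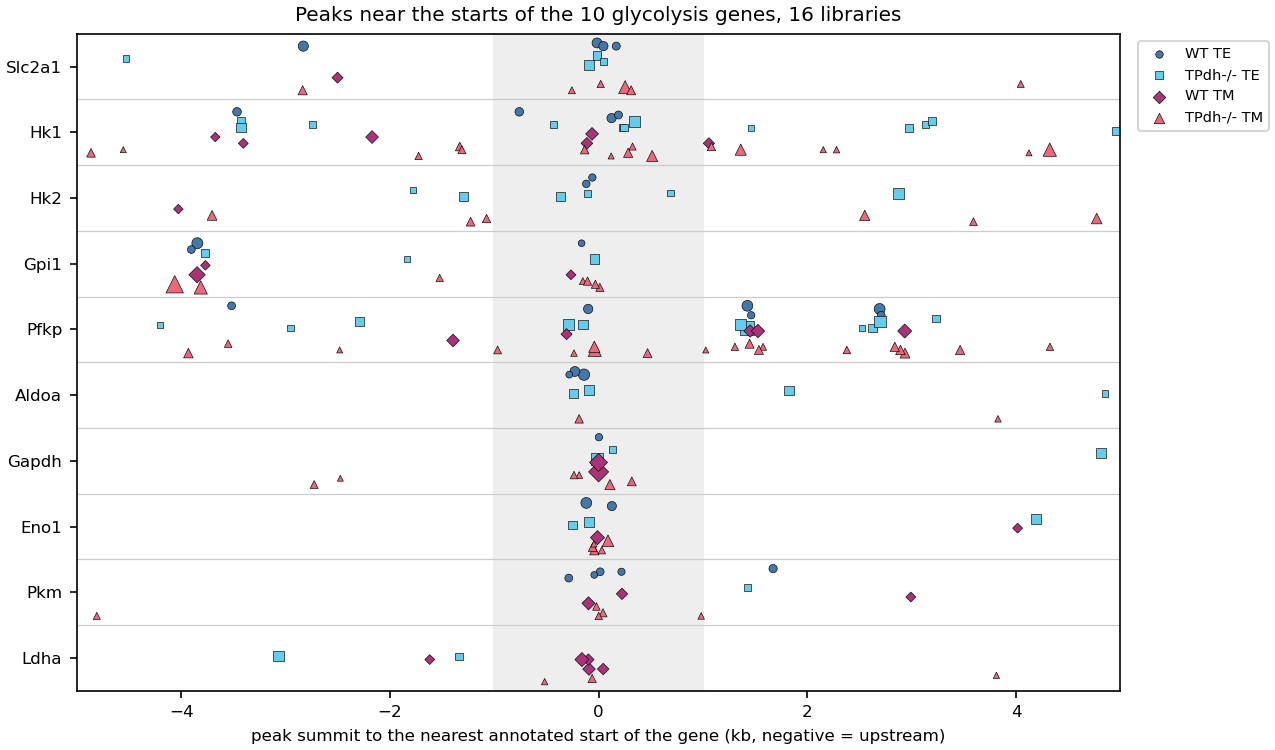
Distance from the nearest annotated start of each gene (horizontal axis, kb, negative is upstream) for 182 of the 248 peaks, those within 5 kb; rows are genes, each split into 16 library levels, marker size grows with fold enrichment, and the shaded band is 1 kb to each side. Peaks gather at the starts, about 4 kb upstream of Gpi1 and at 2 places in Pfkp.

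Merging the peaks of all libraries gave 140 regions in the 10 windows. Of these 105 were held by 1 library, 17 by 2, 5 by 3 and 13 by 4 or more. The 13 recurring regions lay in 9 genes, Ldha being the one without, and 8 of them included a peak at a start. A peak of another library overlapped 57.7% of the peaks in these windows, against 33.9% over the windows of all protein-coding genes. At starts the shares were 76.7% and 70.8%, and away from starts 47.5% and 24.1%. The 2 sides of this split are not alike: a start is one of the gene itself for the 10 genes, and one of any protein-coding gene for all peaks. Peaks at the start of a neighbour, such as Ppp4c, thus count as away from starts among the 10 genes only. By these counts the gap was wider among peaks away from starts, which include those of the Pfkp introns. No region was held by all 4 libraries of a group and by none of the group compared with it, in any of the 4 comparisons.

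**Figure D4:**
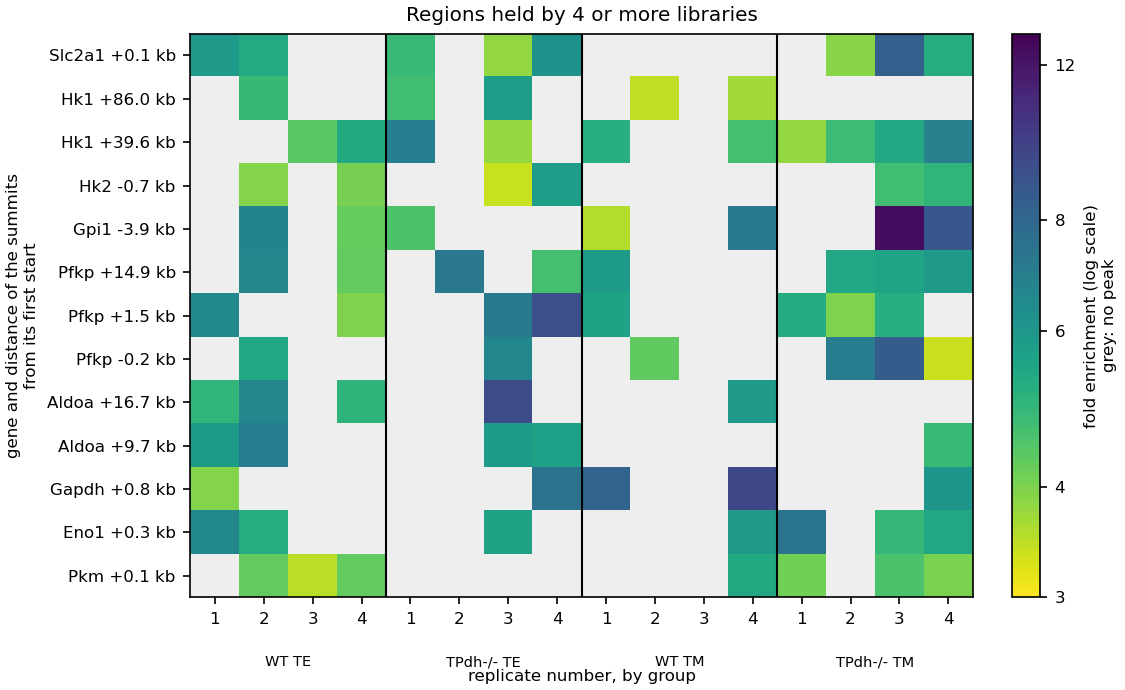
The 13 regions held by 4 or more of the 16 libraries, labelled by gene and by the distance of their summits from its first start (kb, middle of the range); colour gives fold enrichment on a log scale and grey means no peak. The Hk1 region at an internal start, held by 10 libraries, is the most shared, and no row fills 1 group while leaving another empty.

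Genotype was compared first in TM. Of the 10 genes, 8 were held by more TPdh-/- TM than WT TM libraries, Aldoa and Pkm by as many, and none by fewer. The median difference was 37.5 percentage points, against 25.0 over all genes. These values rested in part on WT TM replicate 3: without it 6 were held by more and 2 (Aldoa and Pkm) by fewer, and the medians were 20.8 and 8.33 points. In lists cut to the same length, 5 were held by more TPdh-/- TM libraries and Gapdh by fewer, where all genes were held in 6.15% of cases in TPdh-/- TM and 5.24% in WT TM. None of the 10 passed Fisher's exact test, which can only pass at 4 libraries against 0, and 1.15% of all genes did. The smallest exact p of the 10 was 0.429. Strength was then compared as the log2 fold enrichment of the strongest peak, with 0 where there was none. For Hk1 it was 2.96 ± 0.361 in TPdh-/- TM and 1.75 ± 1.17 in WT TM (SD, n = 4 each), a difference of 1.21 (exact permutation p = 0.0286, the smallest that 4 against 4 libraries allow; adjusted p over all genes tested = 0.839). Every TPdh-/- TM library lay above every WT TM library, with 5.36 as the lowest and 5.30 as the highest fold. It was the only one of the 10 past the unadjusted threshold, as were 2.91% of all genes tested. The 4 strongest Hk1 peaks of TPdh-/- TM lay in 4 different places, downstream of the gene, in 2 introns and at the internal start. It did not pass without any 1 of the TPdh-/- TM libraries (exact permutation p from 0.0857 to 0.114). Without WT TM replicate 3 the difference was 0.627 (exact permutation p = 0.0571), and with background coverage as a covariate it turned to -1.06 (permutation p = 0.2). Larger differences, of 1.57 for Gpi1, 1.45 for Hk2 and 1.43 for Slc2a1, did not pass, and the groups overlapped for each. Over the 10 genes the median difference was 1.15, against 0.52 over all genes tested, and without WT TM replicate 3 it was 0.57 against 0.39.

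In TE, 6 of the genes were held by more TPdh-/- than WT libraries, 3 (Gpi1, Aldoa and Pkm) by fewer and Ldha by as many. This direction turned when every list was cut to its 2290 peaks of highest −log10 q, the length of the shortest: Hk2 was then held by more TPdh-/- TE libraries and 6 genes (Slc2a1, Hk1, Gpi1, Aldoa, Eno1 and Pkm) by fewer, with 1.25 genes held per library in TPdh-/- TE and 2.75 in WT TE. All genes moved alike, with 5.37% held in TPdh-/- TE and 11.4% in WT TE. In the full lists the median difference was 25.0 percentage points over the 10 genes and over all genes, and the mean difference was 12.5 and 25.5 points. Without WT TE replicate 3, the shortest list, the median over the 10 genes was 4.17 points against 25.0. None passed Fisher's exact test, as against 3.18% of all genes, and the smallest exact p was again 0.429. Hk2 alone passed the unadjusted threshold for strength, as did 6.36% of all genes. Its log2 fold was 2.59 ± 0.377 in TPdh-/- TE and 1.00 ± 1.16 in WT TE (SD, n = 4 each), a difference of 1.59 (exact permutation p = 0.0286; adjusted p over all genes tested = 0.449). The lowest TPdh-/- TE fold was 4.10 and the highest WT TE fold 4.06, so the groups were separate by a narrow margin. At the starts alone the Hk2 difference was 0.07 (exact permutation p = 1.0), so it rested on peaks inside and downstream of the gene, only 2 of which, in replicates 2 and 4, shared a region. It did not pass without any 1 of the TPdh-/- TE libraries or without WT TE replicate 1 or 3 (exact permutation p from 0.0571 to 0.114). With background coverage as a covariate it was 0.63 (permutation p = 0.657). Pkm went the other way, with 4 WT TE and 2 TPdh-/- TE libraries and a difference of -0.96, but the groups overlapped. The median over the 10 genes was 0.61, against 0.58 over all genes tested. It was 0.95 against 0.76 without WT TE replicate 2, 0.19 against 0.52 without WT TE replicate 3 and 0.29 against 0.58 without WT TE replicate 4.

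WT TM and WT TE were compared next. Of the 10 genes 2, Gapdh and Ldha, were held by more WT TM libraries, 3 by fewer (Gpi1, Aldoa and Pkm) and 5 by as many. This count turned on single libraries: without WT TM replicate 3, 7 were held by a larger share of WT TM libraries and 2 by a smaller one, and without WT TM replicate 4 it was 2 and 8. The median difference was 0 points over the 10 genes and over all genes, 16.7 and 16.7 points without the former, and -16.7 and 8.33 points without the latter. Leaving out any other library gave medians from -16.7 to 12.5 points over the 10 genes. No gene of the 10 passed Fisher's exact test, against 1.21% of all genes, or the permutation test of strength, against 3.7%. The smallest exact p was 0.486 for presence and the smallest exact permutation p was 0.371 for strength. The median difference in log2 strength was -0.15 over the 10 genes and 0.50 over all genes tested. Its sign depended on single libraries: it was 0.24 without WT TM replicate 3, with 2 of the 10 genes lower in WT TM, 0.22 without WT TE replicate 2, and between -0.48 and -0.11 without any other. Aldoa was lowest at -1.28, with 1 WT TM library against 3 of WT TE, and Gapdh highest at 1.08.

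In TPdh-/- cells 5 of the 10 genes were held by more TM than TE libraries, Aldoa by fewer and 4 by as many. Again none of them passed for presence, where 0.479% of all genes did, or for strength, where 2.48% did. The largest differences in log2 strength were 1.58 for Gpi1 and 1.08 for Ldha, and the smallest exact permutation p was 0.0857. The difference between the genotype differences in TM and TE was tested by permuting residuals. None of the 10 passed, against 8.36% of all genes tested. It was largest for Gpi1, at 2.26 on the log2 scale (permutation p = 0.0937; adjusted p = 0.718), and from -0.80 to 0.91 for the others. No gene of any kind passed at an adjusted p of 0.05 in any of the 4 comparisons or in this test. In the 4 comparisons most genes tested would have had to reach the smallest possible p of 0.0286 for any to pass. The lack of adjusted calls there thus says little about single genes. In the test by permuting residuals the smallest adjusted p was 0.057. Since the comparisons share groups, their values are not independent of each other.

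**Figure D5:**
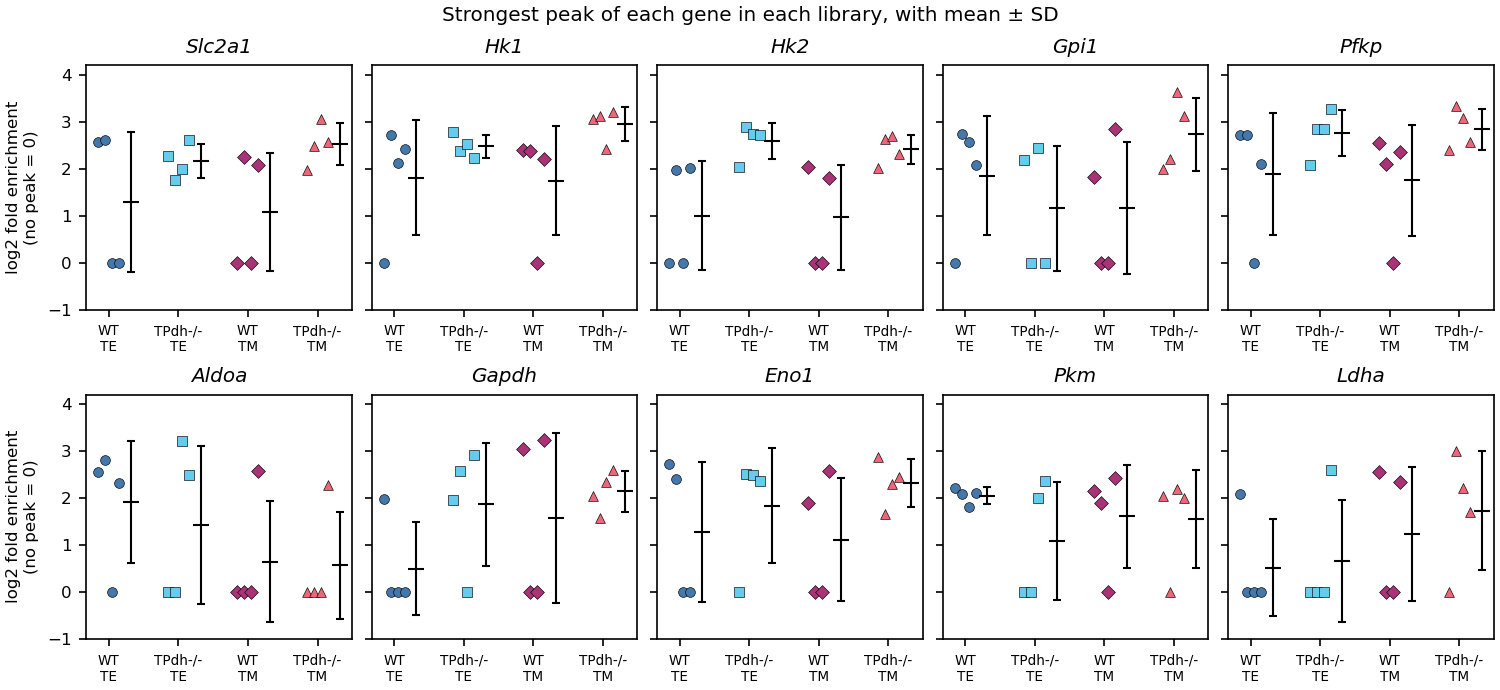
Log2 fold enrichment of the strongest peak of each gene (0 where a library has no peak) by group, 1 point a library, with the mean and SD over 4 libraries beside the points. Groups do not overlap for Hk1 in TM (TPdh-/- above WT) and for Hk2 in TE (TPdh-/- above WT), by small margins, and many groups mix libraries with and without a peak.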

How the data were processed

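ATAC-seq peaks of 16 libraries (4 groups of 4) were analysed as deposited. Per the study's methods and the submitters' processing notes, the authors trimmed reads with Trimmomatic, aligned them to GRCm38 with BWA MEM 0.7.17, removed reads with alternative or split alignments and reads in ENCODE blacklisted regions, and called peaks in each library with MACS2 2.2.7.1 in paired-end mode. The deposited fold enrichment is a ratio of summit pileup to local background, and the deposited −log10 p and −log10 q values are those the authors' peak caller wrote. No read counts were used here. Pileups and background coverage were recovered from these values, with every solved pileup whole within 0.05.

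Peaks were joined to GENCODE M21 genes with Python 3.11.15, within 5000 bp for presence and within 1000 bp of a start by summit. Presence was tested with Fisher's exact test and strength with two-sided exact permutation tests (scipy 1.17.1, tests checked on simulated data) over all 21911 protein-coding genes or those with a peak, with Benjamini-Hochberg adjustment. The smallest p of 4 against 4 libraries is 0.0286. The difference between genotype differences used 10000 permutations of residuals. Sequences were read from RefSeq with samtools 1.23.1. All 10 genes are named. Of other listed genes, those with p under 0.05 and the 4 of each pathway list most often open at a start are named, except some that are not reported here, and regions are named where 4 or more libraries hold them. The members and lists were chosen with earlier results of these data known. Alternatives were gene bodies, starts, stricter or equal-sized lists, other strengths, coverage as a covariate (group coefficient over its standard error, labels permuted), a replicate block and leaving out libraries.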

Additional observations from a re-analysis of the deposited data

Results flagged for a closer look

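Single libraries far from the other 3 of their group were sought by Dixon's criterion in the log2 fold enrichment of the strongest peak of each gene and in the numbers of genes held, genes held at a start and peaks per library. Of 52 sets of 4 values tested, 8 had such a library, all in the log2 fold enrichment. The usual chance rate of 1 in 20 does not apply here, since a library without a peak was set to 0 and a gene with a peak in 1 library of a group meets the criterion by that coding. In 3 of them a peak was missing that the other libraries held: Hk1 in WT TM replicate 3 was at 0.0, Eno1 in TPdh-/- TE replicate 1 at 0.0, and Pkm in TPdh-/- TM replicate 2 at 0.0. In the other 5 a single library held the only peak of its group. These were Aldoa in WT TM replicate 4 (2.57) and in TPdh-/- TM replicate 4 (2.27), Gapdh in WT TE replicate 1 (1.98), and Ldha in WT TE replicate 1 (2.08) and in TPdh-/- TE replicate 4 (2.60).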

How the results depend on the processing

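The number of presence calls among the 10 genes was 0 under every setting run. The single strength call in TM (Hk1) became 0 with gene bodies, starts, a −log10 q of at least 5, equal-sized lists or summits inside the window, 2 with −log10 q as the strength (Hk1 and Hk2, where 3.7% of all genes passed), and 0 to 3 when a library was left out (0 without any TPdh-/- TM library or WT TM replicate 3, 3 without WT TM replicate 1 and 2 without WT TM replicate 4, where 7.22% and 4.86% of all genes passed). With coverage as a covariate the call was Pkm, lower in TPdh-/- TM, in place of Hk1, and 3.16% of all genes passed. The single call in TE (Hk2) became 0 with gene bodies, starts, a −log10 q of at least 5, equal-sized lists, −log10 q as the strength or coverage as a covariate. When a library was left out the count was 0 to 1, and 1 only without WT TE replicate 2 or 4, where 10.9% and 6.52% of all genes passed. For the difference between genotype differences −log10 q gave 1 (Hk1) in place of 0, where 6.63% of all genes passed, and leaving out a library 0 to 1 (Gpi1 without WT TE replicate 1 or WT TM replicate 4, where 7.88% and 8.9% passed, against 8.36% with all libraries). With coverage as a covariate the Hk1 difference in TM reversed to -1.06 (permutation p = 0.2). The cause was not tested.

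With a −log10 q of at least 5, members per library were 3 (WT) and 2.75 (TPdh-/-) in TE and 0.75 (WT) and 3.75 (TPdh-/-) in TM, and in equal-sized lists 2.75, 1.25, 0.5 and 2.25 in that order. All genes were held in 11.3%, 12.1%, 9.74% and 18% of cases under the first setting and in 11.4%, 5.37%, 5.24% and 6.15% under the second. In TPdh-/- members per library were 5.25 (TE) and 7.75 (TM) in gene bodies, where all genes were held in 41.7% and 50.9% of cases, and 4 and 6.5 at starts (18.8% and 28.3%). Settings added after seeing the data gave 25.6% of pairs against 12.8% over all genes (−log10 q of at least 5) and 16.9% against 7.04% (equal-sized lists), and the medians without single libraries were also added then. With a −log10 q of at least 5 or equal-sized lists, presence reversed to -25 points for Slc2a1, Hk1 and Eno1 in TE, for Eno1 in gene bodies also, and to -25 and -50 points for Gapdh in TM.

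With a replicate block both strength counts were 0, since the smallest p it allows is 0.125. Same-numbered libraries correlated at -0.0403 to 0.127 and share only a number. Most peaks rest on few fragments, so a missing peak does not show closed chromatin.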

Other observations

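Other genes of the pathway were counted in the same way, with no test between lists, whose windows differ in length (median 27.15 kb for the 12 further genes, 23.9 kb for the 9 isoforms and 50.26 kb for the 8 regulators, against 36.01 kb for the 10 genes). The 12 further glycolysis and lactate genes were held in 51.6% of gene-library pairs and at a start in 28.6%, with Pfkl (9 libraries at a start), Bpgm (8), and Pfkm, Slc16a3 and Tpi1 (6 each) most often open. The 9 isoforms known from other tissues were held in 37.5% and at a start in 3.47%, Ldhc in 2 libraries and Hk3 in 1 among them. The 8 regulators were held in 65.6% and at a start in 43.8%. Among them were Pfkfb2 (11 libraries at a start) and Pfkfb4 (10), which encode enzymes that set the level of fructose-2,6-bisphosphate, Tigar (9), and Hif1a (8), a subunit of HIF-1. All protein-coding genes stood at 46.5% and 20.3%.

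None of these genes passed after adjustment. Pklr, the liver and red cell pyruvate kinase, had a peak in 4 TPdh-/- TE and 0 WT TE libraries (Fisher's exact p = 0.0286, adjusted p = 0.891), a result that 3.18% of all genes shared in either direction, and none of these peaks was at a start. Its log2 strength differed by 2.13 (exact permutation p = 0.0286, adjusted p = 0.449), where 6.36% of all genes tested passed. In TPdh-/- cells, the log2 strength of TM minus TE was 1.06 for Slc2a3, a further glucose transporter, -1.71 for Pklr and -0.89 for Hif1a (exact permutation p = 0.0286 and adjusted p = 1.0 for each), where 2.48% of all genes tested passed.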
